A study of Mus musculus with 8 samples.

Results

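The 9 genes described here encode potassium channel subunits of the heart: the pore and partner subunits of the transient outward channel (Kcnd2, Kcnd3 and Kcnip2), the voltage-gated subunits Kcna5, Kcnq1 and Kcnv2, and the inward rectifiers Kcnj2, Kcnj3 and Kcnj11. They were chosen by name, with earlier results of these data known, and all 9 were found among the 49671 genes of the deposited table. The RNA came from left ventricles in 4 groups of 2 libraries each: mice on the SFA-EAA diet with transverse aortic constriction (TAC SFA-EAA) or a sham operation (sham SFA-EAA), and mice on the SFA diet with TAC (TAC SFA) or a sham operation (sham SFA). TAC narrows the aorta and loads the left ventricle with pressure. All animals were males of the C57BL/6N strain that entered the study at 8 weeks of age, and the labels give no engineered allele. SFA is a low fat diet, and in the SFA-EAA diet free essential amino acids took the place of 93.5% of the casein. Hearts were sampled 4 weeks after surgery, so each group is 1 time point of 1 strain and sex. Whether both libraries of a group stem from different animals is not stated in the labels, so p-values measure the spread between libraries alone, and that spread may be technical.

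Potassium channels end the cardiac action potential. In the mouse ventricle the transient outward current, carried by Kcnd2 and Kcnd3 pores with the calcium-binding subunit Kcnip2, gives the fast early repolarization, and delayed rectifiers such as Kcna5 add slower current. Inward rectifiers set the resting potential (Kcnj2), answer acetylcholine through G proteins (Kcnj3 with Kcnj5, more abundant in atria than in ventricles) or open when ATP falls (Kcnj11 with the sulfonylurea receptor Abcc9). Kcnv2 is a silent subunit: it forms no channel alone and alters the channels it joins. Reduced transient outward current is a long known feature of hypertrophied and failing hearts.

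Values are the authors' normalized values per gene. Their sums ranged from 5136441 to 6298743 per library. Ventricular markers were high throughout (7 markers, summed value 186369 to 286499). Of the 7, 6 were lower in both TAC SFA than in both sham SFA libraries, against 23.1% of the 16432 genes tested. The 7 summed to 220319 and 236921 in TAC SFA and 278597 and 286499 in sham SFA libraries. Fibroblast markers summed to 4395 and 7375 in TAC SFA and 3389 and 3289 in sham SFA libraries, while 1 of them, Tcf21, overlapped. Leukocyte markers summed to 1128 and 987 in TAC SFA and 923 and 671 in sham SFA libraries. On SFA-EAA they summed to 970 and 1424 in TAC and 728 and 770 in sham libraries. Atrial markers summed to 134 and 77.0 in TAC SFA-EAA, 208 and 97.1 in sham SFA-EAA, 140.4 and 1506 in TAC SFA and 1705 and 227 in sham SFA libraries, so TAC SFA replicate 2 and sham SFA replicate 1 stood above the others. Of the 6 atrial markers Bmp10 was at 0 everywhere. The libraries also differed in base composition: across 10221 genes, Spearman's rho between a gene's deviation from its mean and its GC content was -0.75 in TAC SFA-EAA replicate 2, -0.63 and -0.44 in the sham SFA-EAA libraries, and 0.35 to 0.54 in the other 5 libraries. Genes are not independent replicates, so these are descriptions.

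The starts of 3 genes whose values separated TAC from sham libraries under SFA are shown first, because a core motif of Klf-type factors (CACCC, either strand) sits in them unevenly and Klf15, a factor known in mice to drive Kcnip2 expression, was measured in the same libraries. Each line holds the 250 bases before the annotated start in RefSeq (GRCm38.p6), written 5′ to 3′ along the gene's strand, with CACCC or its reverse complement GGGTG in capitals. The windows are chr19:45816064-45816313 (minus strand), chr6:21215096-21215345 (plus strand) and chr2:55435720-55435969 (plus strand).
Kcnip2: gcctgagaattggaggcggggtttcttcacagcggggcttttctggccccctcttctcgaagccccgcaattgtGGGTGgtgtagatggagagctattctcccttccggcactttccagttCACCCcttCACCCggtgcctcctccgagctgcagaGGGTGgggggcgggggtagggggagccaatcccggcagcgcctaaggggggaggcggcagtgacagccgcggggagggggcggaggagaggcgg
Kcnd2: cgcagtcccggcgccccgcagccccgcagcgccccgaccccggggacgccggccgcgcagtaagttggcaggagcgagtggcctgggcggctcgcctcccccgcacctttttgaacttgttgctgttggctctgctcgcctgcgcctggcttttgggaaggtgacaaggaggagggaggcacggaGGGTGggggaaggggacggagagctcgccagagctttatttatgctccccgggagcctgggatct
Kcnj3: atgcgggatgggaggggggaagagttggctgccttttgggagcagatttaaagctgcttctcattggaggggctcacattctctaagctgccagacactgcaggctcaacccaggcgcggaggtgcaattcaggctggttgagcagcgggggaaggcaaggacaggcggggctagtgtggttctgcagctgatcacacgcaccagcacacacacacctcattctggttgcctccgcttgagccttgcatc
The Kcnip2 window held 4 matches, the Kcnd2 window 1 and the Kcnj3 window 0. Of 32851 windows of this length, 52% held at least 1, so a match is common, and it is a description of letters, not a binding site. Windows were given for 6 of the 9 genes, and Kcnd3 and Kcna5 held 2 matches each and Kcnj2 held 1. Other motifs searched on both strands were the Iroquois-type ACANNTGT (6.31% of windows), which was in none of the 6, the E-box CACGTG (6.02%), with 1 match in Kcnj2, the TATA box TATAAA (12.4%), in none of the 6, and the CCAAT box (33.8%), with 2 matches in Kcnip2 and 1 each in Kcnj2 and Kcnj3.

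Per kilobase of the gene length given in the table, the 9 genes spanned a wide range of levels. Kcnip2 averaged 230.1 per kilobase over the 8 libraries and Kcnj11 208, and their ranges (169.7 to 295 and 149.8 to 246) overlapped. Kcnj3 (62.4), Kcna5 (59.0) and Kcnq1 (56.6) followed, again with ranges that overlapped. Kcnj2 averaged 27.2 per kilobase and Kcnd2 15.3, with overlapping ranges of 16.0 to 39.9 and 5.07 to 24.4. The range of Kcnj2 lay below that of Kcnq1 (45.6 to 70.6), and those of Kcnj3, Kcna5 and Kcnq1 lay below those of Kcnip2 and Kcnj11. Kcnv2 (7.84) and Kcnd3 (6.33) were lowest, and the order of the last 3 genes was not separated by their spread. Levels of the same gene are compared below as normalized values, not per kilobase. All 9 genes passed the filter on low values. Antisense genes overlap Kcnq1 (Kcnq1ot1, at most 10.6), Kcnd3 (Kcnd3os, at most 3.599) and Kcnj3 (Gm26794, at most 2.23), and whether counting used strand is not given in the sources used here.

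**Figure D1:**
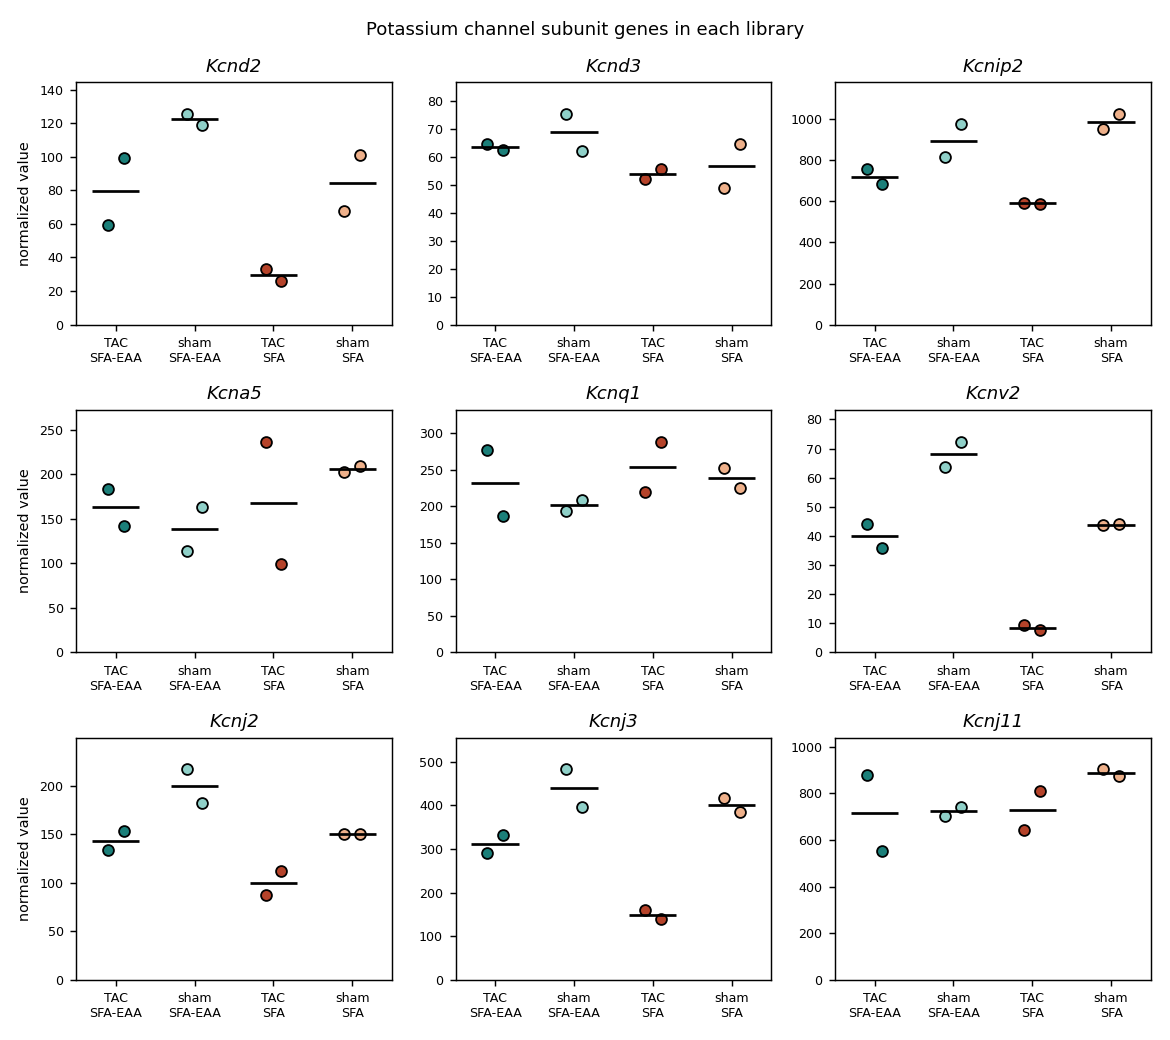
Normalized value of each of the 9 genes (vertical axes, each starting at 0) in the 8 libraries by group, with points for libraries and bars for the mean of 2. Kcnv2, Kcnj3 and Kcnd2 are lowest in the TAC SFA libraries, and Kcnq1 and Kcnd3 overlap between TAC and sham on both diets.

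Under the SFA diet, TAC hearts had less Kcnv2, Kcnj3 and Kcnip2 RNA than sham hearts. These 3 of the 9 genes fell at an adjusted p under 0.05 and none rose, where 0.414% of the 16432 genes tested fell and 1.25% changed in either direction. Kcnd2 was lower by a similar amount to Kcnj3 but missed the threshold. In 6 of the 9 genes (these 4, Kcnj2 and Kcnj11) both TAC SFA libraries lay below both sham SFA libraries, against 23.1% of all genes tested. The median log2 difference was -0.60 over the 9 genes and 0.01 over all genes tested. In bulk tissue, fewer cells of a type and less RNA per cell cannot be told apart. The lower ventricular and higher fibroblast and leukocyte marker values given above moved with these differences, and their part in them was not tested.

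Of the transient outward subunits, Kcnip2 (chr19:45791839-45816061, GRCm38, minus strand) had 595 and 589.7 in TAC SFA libraries and 951 and 1027 in sham SFA libraries, so the TAC values were close to each other and well below the sham values. It fell by 0.74 on the log2 scale (95% confidence interval -1.02 to -0.45, adjusted p = 0.0307). Kcnd2 (chr6:21215503-21729805, plus strand), the main pore of the fast current in mouse ventricle, had 33.2 and 26.1 in TAC SFA and 67.8 and 101 in sham SFA libraries. The highest TAC value was below the lowest sham value, and the log2 difference was -1.46 (-2.12 to -0.81, adjusted p = 0.052). Kcnd3 (chr3:105452330-105674002, plus strand), the other pore gene, had 52.1 and 55.5 in TAC SFA and 48.9 and 64.4 in sham SFA libraries. Its groups overlapped (log2 difference -0.060, -0.55 to 0.43, adjusted p = 0.954).

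Among the other voltage-gated subunits, Kcnv2 (chr19:27322588-27337179, plus strand) had 9.44 and 7.45 in TAC SFA libraries and 43.8 and 44.0 in sham SFA libraries. It fell by 2.26 on the log2 scale (-2.85 to -1.67, adjusted p = 0.00616), the widest difference of the 9 genes in this comparison. Kcna5 (chr6:126532551-126535412, minus strand), which carries an ultrarapid or slowly inactivating delayed current, had 237 and 99.2 in TAC SFA and 202 and 209 in sham SFA libraries. The 2 TAC libraries lay on either side of the sham libraries, and no difference passed the test (log2 difference -0.42, -1.22 to 0.38, adjusted p = 0.703). The low Kcna5 library was TAC SFA replicate 2, 1 of the 2 with high atrial markers. Kcnq1 (chr7:143106362-143427042, plus strand), the pore of the slow delayed rectifier, had 219 and 289 in TAC SFA and 253 and 226 in sham SFA libraries, which overlapped (log2 difference 0.074, -0.39 to 0.54, adjusted p = 0.933).

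Of the inward rectifiers, Kcnj3 (chr2:55435970-55598145, plus strand) had 160.4 and 139 in TAC SFA libraries and 418 and 385 in sham SFA libraries, and it fell by 1.42 on the log2 scale (-1.76 to -1.08, adjusted p = 0.00438). Kcnj3 is an atrial-rich gene. Of the 2 libraries high in atrial markers, TAC SFA replicate 2 held the lowest Kcnj3 value of all and sham SFA replicate 1 the higher value of its group, and the part of atrial tissue in the difference was not tested. Kcnj2 (chr11:111066164-111076821, plus strand) had 87.1 and 112 in TAC SFA and 150.4 and 150.4 in sham SFA libraries, with no overlap. Its log2 difference of -0.60 (SE 0.18) did not pass the test (adjusted p = 0.16). Kcnj11 (chr7:46093953-46100764, minus strand) had 643 and 812 in TAC SFA and 904 and 873 in sham SFA libraries. The TAC values were lower without overlap, and the log2 difference was -0.30 (-0.76 to 0.16, adjusted p = 0.615).

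These calls under SFA depended on single libraries. All 3 were lost when TAC SFA replicate 2 or either sham SFA library was left out, where few or none of all genes tested were called. Kcnv2 and Kcnj3 were kept without each of the other libraries. Kcnip2 was kept only without either TAC SFA-EAA library, where Kcnd2 was called too and calls over all genes rose. Over these 8 fits the log2 difference ran -2.41 to -2.10 for Kcnv2 and -1.52 to -1.32 for Kcnj3. For Kcnip2 it ran -0.79 to -0.68 and for Kcnd2 -1.75 to -1.18. With both libraries of high atrial markers left out, a fit chosen after seeing the data, the log2 differences were -2.11 for Kcnv2, -1.26 for Kcnj3, -0.79 for Kcnip2 and -1.58 for Kcnd2, with 1 library left per SFA group and 0 genes called among all tested (968 at an unadjusted p under 0.05). When each library's trend with GC content was removed, 6 of the 9 genes fell, against 3.46% of all genes: Kcnd2 (adjusted p = 0.00378), Kcnj2 (0.0338) and Kcnj11 (0.0478) were added to the 3 above. With the replicate block added to that correction 4 were called, without Kcnj2 and Kcnj11.

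Under the SFA-EAA diet no member passed the test between TAC and sham hearts, although 5 genes separated without overlap. In limma's test 0 of the 9 were called and 5 had an unadjusted p under 0.05. Over all 16432 genes tested 1408 had an unadjusted p under 0.05, and 0.0122% were called, all higher in TAC. Kcnv2 had 44.0 and 35.7 in TAC SFA-EAA and 63.8 and 72.4 in sham SFA-EAA libraries (log2 difference -0.76, -1.35 to -0.17, adjusted p = 0.492). Kcnj3 had 291 and 332 in TAC SFA-EAA and 483 and 397 in sham SFA-EAA libraries (log2 difference -0.49, -0.83 to -0.16, adjusted p = 0.43). For Kcnd2 the values were 59.5 and 99.3 in TAC SFA-EAA and 126 and 119 in sham SFA-EAA libraries (log2 difference -0.66, adjusted p = 0.573). These 3 genes, Kcnj2 (133 and 153 in TAC SFA-EAA, 217 and 182 in sham SFA-EAA, adjusted p = 0.509) and Kcnip2 (759 and 683 in TAC SFA-EAA, 815 and 979 in sham SFA-EAA, adjusted p = 0.545) were lower in both TAC libraries, a separation that 18% of all genes showed. The other 4 genes overlapped: Kcnd3 had 64.6 and 62.2 in TAC SFA-EAA and 75.2 and 62.1 in sham SFA-EAA libraries, and the log2 differences of Kcna5, Kcnq1 and Kcnj11 were 0.24, 0.18 and -0.057. With GC trends removed, 0 of the 9 were called as well, where 0.244% of all genes were. The 2 TAC SFA-EAA libraries lay far apart for Kcnj11 (877 and 551) and Kcnq1 (277 and 187), both of high GC content (57.6% and 56.2%), with the lower value in replicate 2.

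Among TAC hearts, those on the SFA-EAA diet had more Kcnv2 than those on SFA. Kcnv2 had 44.0 and 35.7 in TAC SFA-EAA and 9.44 and 7.45 in TAC SFA libraries, and rose by 2.11 on the log2 scale (1.52 to 2.70, adjusted p = 0.0408). It was 1 of 9 genes called higher, where 0.0122% of all genes tested were called higher and 0.0487% in either direction. Kcnj3 (log2 difference 1.05, 0.72 to 1.39, adjusted p = 0.0552) and Kcnd2 (1.36, 0.70 to 2.01, adjusted p = 0.124) did not pass. In 6 of the 9 genes (Kcnd2, Kcnd3, Kcnip2, Kcnv2, Kcnj2 and Kcnj3) both TAC SFA-EAA libraries lay above both TAC SFA libraries, against 21.7% of all genes. For Kcnj2 the log2 difference was 0.53 (adjusted p = 0.227), for Kcnip2 0.28 (adjusted p = 0.334) and for Kcnd3 0.23 (adjusted p = 0.647). Kcna5, Kcnq1 and Kcnj11 overlapped, with log2 differences of 0.075, -0.15 and -0.056. This comparison and the surgery comparison under SFA share the TAC SFA libraries, so they are not independent.

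Some sums of cell type markers differed between the diets in TAC hearts. Fibroblast markers summed to 3117 and 3663 in TAC SFA-EAA and 4395 and 7375 in TAC SFA libraries. Atrial markers summed to 134 and 77.0 against 140.4 and 1506 in the same order. The other sums overlapped. For smooth muscle and pericyte markers they were 3479 and 4575 in TAC SFA-EAA and 3933 and 4138 in TAC SFA libraries. Rgs5 made up most of that sum, and the other markers of that list were lower in both TAC SFA-EAA libraries. Leukocyte sums were 969.8 and 1424 in TAC SFA-EAA and 1128 and 987 in TAC SFA. Endothelial sums were 3364 and 2954 in TAC SFA-EAA and 3201 and 3012 in TAC SFA. Conduction system sums were 235 and 99.1 in TAC SFA-EAA and 225 and 292 in TAC SFA. Ventricular sums were 284524 and 186369 in TAC SFA-EAA and 220319 and 236921 in TAC SFA. The part of these cell types in the Kcnv2 difference was not tested.

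The Kcnv2 call was lost when any 1 of the 7 libraries other than TAC SFA-EAA replicate 1 was left out, where few or none of all genes tested were called. Without TAC SFA-EAA replicate 1 it was kept, and calls over all genes were far more frequent. Over the 8 fits the log2 difference of Kcnv2 stayed between 1.96 and 2.26. With GC trends removed, 4 of the 9 genes rose, against 1.46% of all genes: Kcnv2 (adjusted p = 0.00305), Kcnj3 (0.00305), Kcnd2 (0.0228) and Kcnip2 (0.0312).

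Among sham hearts no member passed the test between diets. With limma 0 of the 9 genes were called (2 at an unadjusted p under 0.05), as were 0 of all genes tested, a background of 0% (2437 at an unadjusted p under 0.05). Both sham SFA-EAA libraries lay above both sham SFA libraries for Kcnd2 (126 and 119 against 67.8 and 101), Kcnv2 (63.8 and 72.4 against 43.8 and 44.0) and Kcnj2 (217 and 182 against 150.4 and 150.4), and below them for Kcna5 (114 and 163 against 202 and 209), Kcnq1 (194 and 209 against 253 and 226) and Kcnj11 (705 and 742 against 904 and 873). Of all genes, 27.6% separated in each direction, so 3 of 9 in each direction is near the share over all genes. The 3 higher genes had GC contents of 44.4%, 48.3% and 41.2%, and the 3 lower genes 54.3%, 56.2% and 57.6%. The part of base composition in these differences was not tested. The log2 difference of Kcnj2 was 0.40 as deposited and 0.11 with GC trends removed, while that of Kcnv2 was 0.62 and 0.58 in the same order (adjusted p = 0.325 and 0.486). Kcnd2 and Kcna5 kept their direction under that correction, with log2 differences of 0.55 and -0.59 as deposited and 0.37 and -0.39 after it. Kcnq1 and Kcnj11 turned direction, with log2 differences of -0.25 and -0.30 as deposited and 0.085 and 0.15 after it. Kcnip2, Kcnj3 and Kcnd3 overlapped between the diets, with log2 differences of -0.15, 0.13 and 0.28.

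**Figure D2:**
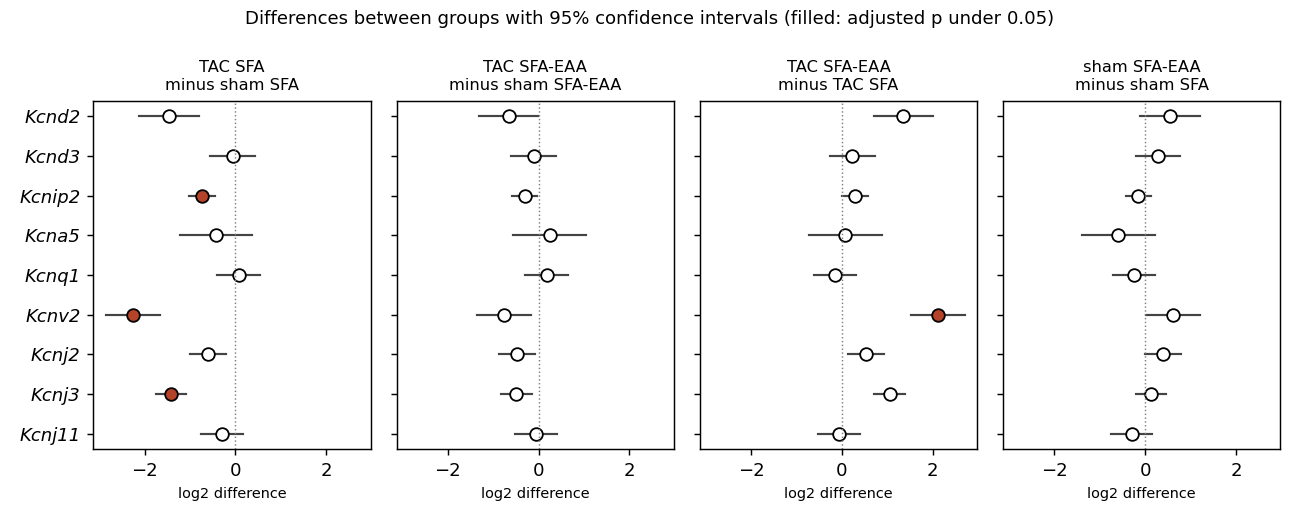
Log2 difference of each of the 9 genes in the 4 comparisons between groups, with lines for the 95% confidence interval, filled points for an adjusted p under 0.05, and a dotted line at 0. Kcnv2 lies at -2.26 for TAC SFA minus sham SFA and at 2.11 for TAC SFA-EAA minus TAC SFA, which share the TAC SFA libraries.

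Whether the response to TAC differed between the diets was tested by the interaction, and no gene passed. Neither the 9 members nor any other gene was called by limma (3 members and 902 genes at an unadjusted p under 0.05), so the background was 0%. The interaction was 1.49 for Kcnv2 (0.66 to 2.33, adjusted p = 0.785), 0.93 for Kcnj3 (0.45 to 1.40, adjusted p = 0.785), 0.80 for Kcnd2 (adjusted p = 0.881) and 0.43 for Kcnip2 (adjusted p = 0.878). A positive value means a TAC minus sham difference that is more positive under SFA-EAA. With GC trends removed the adjusted p of Kcnj3 was 0.0841, and again no gene was called. A call under SFA and none under SFA-EAA does not show that the responses differed.

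Averaged over the diets, TAC hearts had less Kcnj3 (log2 difference -0.96, SE 0.11, adjusted p = 0.00453), Kcnv2 (-1.51, SE 0.19, adjusted p = 0.00615), Kcnip2 (-0.52, SE 0.09, adjusted p = 0.0246) and Kcnd2 (-1.06, SE 0.21, adjusted p = 0.0373) than sham hearts, so 4 of the 9 fell where 0.73% of all genes did. Kcnj2 did not pass (-0.54, adjusted p = 0.0698). After GC correction 6 of the 9 fell, against 4.11% of all genes, with Kcnj2 (log2 difference -0.53, adjusted p = 0.0157) and Kcnj11 (-0.26, adjusted p = 0.0364) added. No member kept its call without TAC SFA replicate 2. Only Kcnj3 did without either sham SFA library or either sham SFA-EAA library, and Kcnj3 and Kcnv2 did without TAC SFA replicate 1. Calls over all genes tested also fell in each of these fits. The log2 difference of Kcnj3 over the 8 fits with 1 library left out ran -1.03 to -0.88. Averaged over surgery, SFA-EAA hearts had more Kcnv2 (1.37, SE 0.19, adjusted p = 0.0266) and Kcnj3 (0.59, SE 0.11, adjusted p = 0.0481) than SFA hearts, 2 of the 9 where 0.487% of all genes rose. Kcnd2 (0.96, adjusted p = 0.0578) and Kcnj2 (0.46, adjusted p = 0.0848) did not pass. After the correction 3 rose, against 2.01% of all genes, Kcnd2 being the third (0.81, adjusted p = 0.0266). Both diet calls were lost without any of the 7 libraries other than TAC SFA-EAA replicate 1, where few or none of all genes tested were called. Without that one both were kept, and calls over all genes were far more frequent. The Kcnj11 difference in that fit was -0.34. The GC-corrected Kcnj11 difference was 0.25, in the other direction.

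Partner genes were read in the same libraries. Within the transient outward pair, the ratio of Kcnd2 to Kcnd3 was 0.921 and 1.60 in TAC SFA-EAA, 1.67 and 1.92 in sham SFA-EAA, 0.637 and 0.471 in TAC SFA and 1.39 and 1.57 in sham SFA libraries, so the TAC SFA libraries were the lowest. Kcnip2 divided by the summed pores overlapped between TAC and sham on both diets (6.97 and 7.22 in TAC SFA, 8.15 and 6.19 in sham SFA libraries). Ratios are of normalized values and show unequal change, not which partner changed.

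Kcnj5, which joins Kcnj3 in the acetylcholine-gated channel, had 259 and 361 in TAC SFA and 497 and 495 in sham SFA libraries (log2 difference -0.70, -1.08 to -0.31, adjusted p = 0.0982), and 461 and 389 in TAC SFA-EAA against 497 and 446 in sham SFA-EAA libraries (adjusted p = 0.867). The Kcnj3 to Kcnj5 ratio was 0.62 and 0.384 in TAC SFA and 0.841 and 0.776 in sham SFA libraries, without overlap. Abcc9, the sulfonylurea receptor that joins Kcnj11 in ventricular muscle, fell under SFA, with 1139 and 1159 in TAC and 1746 and 1848 in sham libraries (log2 difference -0.64, -0.89 to -0.40, adjusted p = 0.0307). Leaving out 1 library at a time gave Abcc9 an adjusted p of 0.0259 to 0.362, with the call kept without either TAC SFA-EAA library and lost without each of the other 6. Under SFA-EAA Abcc9 had 1656 and 1746 in TAC and 1916 and 2162 in sham libraries (adjusted p = 0.562). Between the diets in TAC hearts its log2 difference was 0.56 (adjusted p = 0.0925). The ratio of Kcnj11 to Abcc9 was 0.564 and 0.701 in TAC SFA and 0.518 and 0.472 in sham SFA libraries, and that of Kcnj11 to Kcnj8, the pore of the vascular ATP-sensitive channel, overlapped (4.19 and 5.20 in TAC SFA, 5.04 and 4.51 in sham SFA libraries).

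**Figure D3:**
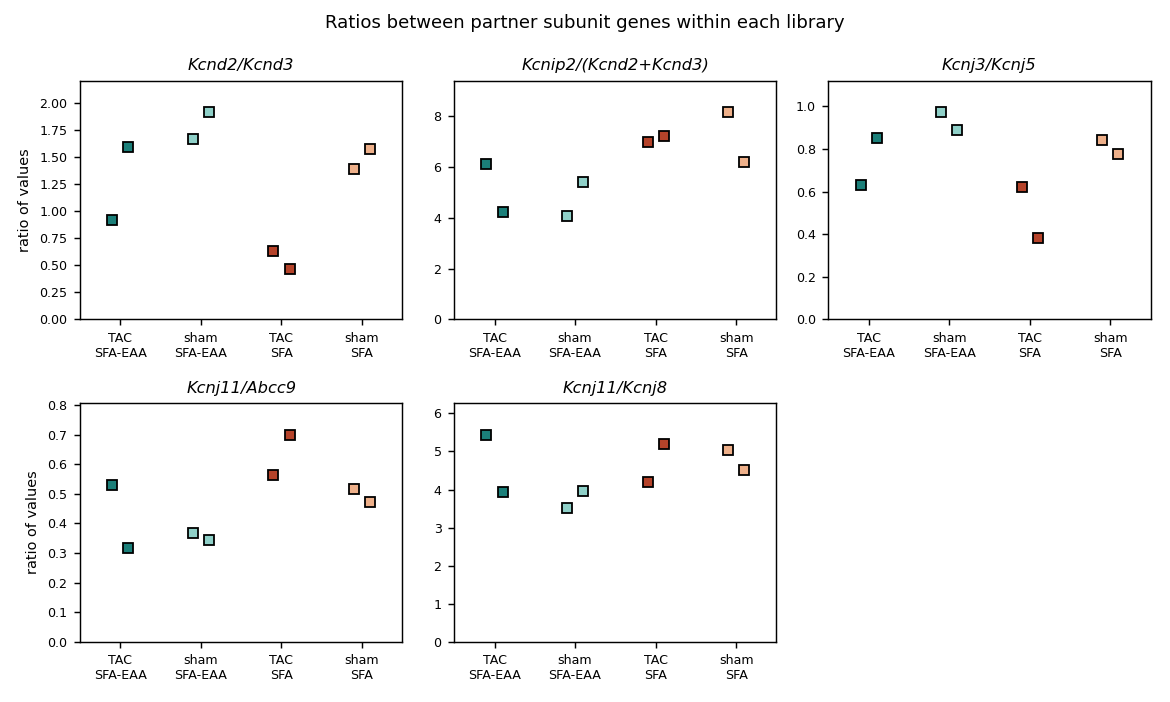
Ratio of normalized values of partner genes within each library (vertical axes, starting at 0) in the 4 groups, 1 point per library. Kcnd2 to Kcnd3 and Kcnj3 to Kcnj5 are lower in the TAC SFA libraries than in the sham SFA libraries without overlap, and Kcnj11 to Abcc9 is higher.

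Of 50 other potassium channel genes listed for this tissue, 49 were in the table and 44 were tested, and 6 regulators of channel expression or placement, listed apart, were all tested. Under SFA the median log2 difference between TAC and sham hearts was -0.17 over the 44, against -0.60 for the 9 members. Members and lists were chosen with earlier results of these data known, so this contrast is a description and not a test. Of the 44, 1 fell (Abcc9), where 0.414% of all genes tested fell, and 0 rose. The next smallest p-values belonged to Kcnj5 and to Kcnn2, a small-conductance calcium-activated channel, which had 42.6 and 42.0 in TAC SFA and 76.7 and 73.4 in sham SFA libraries (log2 difference -0.81, adjusted p = 0.154). By class, the difference was negative in 12 of 14 other voltage-gated pore genes and 6 of 7 other inward rectifier and sulfonylurea receptor genes. It was negative in 3 of 10 auxiliary subunits, 3 of 6 tandem-pore channels, 1 of 7 calcium-activated channels, and apart from these 44 in 3 of the 6 regulators. Over all genes tested 47.7% were negative in this comparison, and differences between the classes were not tested. Kcnh2, the rapid delayed rectifier, had 196 and 256 in TAC SFA and 369 and 307 in sham SFA libraries (adjusted p = 0.682), and Kcne1, the partner of Kcnq1, 54.2 and 45.5 in TAC SFA and 49.4 and 41.3 in sham SFA libraries (adjusted p = 0.935). Kcna4, a pore of the slow transient outward current, ranged from 1.78 to 23.5 over the 8 libraries. Kcnj12, another strong inward rectifier, and Abcc8 did not pass (adjusted p = 0.701 and 0.853). With GC trends removed 4 of the 44 fell, against 3.46% of all genes. Kcnj5 (adjusted p = 0.00735), Kcnn2 (0.0286) and the tandem-pore channel Kcnk3 (0.00692) joined Abcc9. Kcnk3 had 1268 and 1340.3 in TAC SFA and 1802 and 1712 in sham SFA libraries. Averaged over the diets, Abcc9 fell in TAC hearts (log2 difference -0.45, adjusted p = 0.0252), where 0.73% of all genes fell. No other gene of the 44 was called. After GC correction 5 of the 44 fell in that comparison, against 4.11% of all genes: Abcc9 (adjusted p = 0.00142), Kcnj5 (0.0111), Kcnk3 (0.0114), Kcnj8 (0.0255) and Kcnip3 (0.0477).

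**Figure D4:**
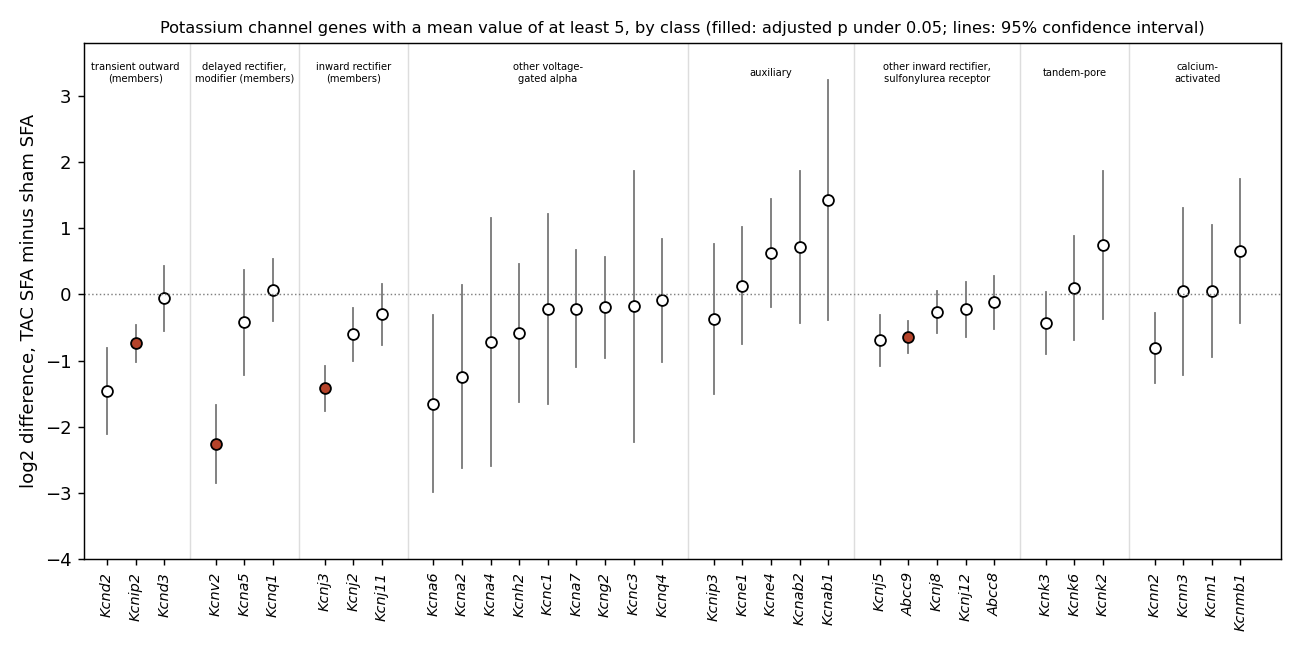
Log2 difference between TAC SFA and sham SFA (vertical axis) for the 9 genes and other listed potassium channel genes with a mean value of at least 5, by class, with lines for the 95% confidence interval and filled points for an adjusted p under 0.05. Kcnv2, Kcnj3, Kcnip2 and Abcc9 are filled, all below 0.

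In the other comparisons between groups 0 of these 44 genes were called by limma. Between TAC and sham under SFA-EAA 4 had an unadjusted p under 0.05 (1408 of all 16432 genes tested). Between the diets there were 7 in TAC hearts (2476 of all genes) and 4 in sham hearts (2437 of all genes). After the same correction 1 of the 44 was called in these, Abcc9, higher in TAC SFA-EAA than in TAC SFA hearts (log2 difference 0.53, adjusted p = 0.0181). That 1 of 44 is near the 1.46% of all genes called higher there. Abcc9 also rose with the SFA-EAA diet averaged over surgery (adjusted p = 0.0317, against 0.0559 as deposited), where 2.01% of all genes rose after the correction. Among these genes and the 6 regulators, under SFA-EAA the smallest p-values were those of Kcnip3 (2.07 and 3.62 in TAC, 13.4 and 19.7 in sham, adjusted p = 0.304), Kcnj8 (161 and 139.8 in TAC, 201 and 187 in sham, adjusted p = 0.515) and Kcna2 (4.13 and 9.33 in TAC, 25.2 and 15.6 in sham, adjusted p = 0.542). Between the diets in TAC hearts they were those of Abcc9, Kcnab2 (5.10 and 2.44 in SFA-EAA, 13.4 and 11.0 in SFA, adjusted p = 0.228) and Kcnmb4 (adjusted p = 0.249). Between the diets in sham hearts they were those of Kcng2 (233 and 241 in SFA-EAA, 499 and 559 in SFA, adjusted p = 0.267), the regulator Irx3 and Kcnj4 (adjusted p = 0.287). Kcnb2 and Kcne2 were listed at 0 in every library.

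None of the 6 regulators passed limma's test in the 7 comparisons, as deposited or with GC trends removed. As deposited, 2 of them (Irx3 and Irx5) had an unadjusted p under 0.05 in a comparison of 2 groups, both between the diets in sham hearts. Klf15 had 239 and 197 in TAC SFA-EAA, 261 and 304 in sham SFA-EAA, 322 and 219 in TAC SFA and 321 and 343 in sham SFA libraries, and its log2 difference between TAC and sham was -0.32 under SFA (adjusted p = 0.544) and -0.38 under SFA-EAA (adjusted p = 0.633). Irx5, a repressor of Kcnd2 in mice, had 43.0 and 16.3 in TAC SFA-EAA, 17.2 and 21.2 in sham SFA-EAA, 34.1 and 39.9 in TAC SFA and 41.3 and 40.3 in sham SFA libraries. Its neighbour Irx3 had 122 and 32.4 in TAC SFA-EAA, 38.7 and 38.8 in sham SFA-EAA, 102 and 148 in TAC SFA and 106 and 124 in sham SFA libraries. Both Irx genes were low in the same 3 libraries, TAC SFA-EAA replicate 2 and the sham SFA-EAA libraries, which were the 3 with negative rho for GC content. The GC contents of Irx5 and Irx3 were 61.8% and 62.4%. Between the diets in sham hearts the log2 difference of Irx3 was -1.54 (adjusted p = 0.268) as deposited and -0.71 with GC trends removed, and that of Irx5 was -1.06 and -0.29 in the same order.

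The genes closest in pattern to the 3 members of widest range were found by the root mean square difference of mean-centred log2 values over the 8 libraries, among 11801 genes. For Kcnv2 they were Ces1d, a carboxylesterase (0.212), Poln (0.315) and the sodium channel gene Scn10a (0.356). Ces1d had 426 and 416 in TAC SFA-EAA, 769 and 853 in sham SFA-EAA, 155 and 99.2 in TAC SFA and 687 and 602 in sham SFA libraries, lowest in TAC SFA and highest in sham SFA-EAA, as was Kcnv2. For Kcnd2 they were Mme, a membrane metallopeptidase (0.246), the iron exporter Slc40a1 (0.262) and Kbtbd3 (0.269). Slc40a1 had 65.7 and 90.7 in TAC SFA-EAA, 147 and 156 in sham SFA-EAA, 39.8 and 42.0 in TAC SFA and 71.3 and 87.3 in sham SFA libraries. For Kcnj3 they were Cmss1 (0.162), the long intergenic RNA gene RP23-440F7.5 (0.164) and Tmem35a (0.169). Cmss1 had 182 and 236 in TAC SFA-EAA, 373 and 341 in sham SFA-EAA, 105 and 114 in TAC SFA and 275 and 251 in sham SFA libraries, so its sham SFA-EAA values were the highest and its TAC SFA values the lowest. The range of group means on the log2 scale was 2.88 for Kcnv2, 2.02 for Kcnd2 and 1.55 for Kcnj3, and 0.32 to 1.00 for the other 6 genes.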

How the data were processed

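PolyA RNA of 8 left ventricle libraries was read on a NextSeq instrument after a stranded library kit (per the labels' protocols). STAR 2.5, GRCm38 and edgeR are named in the submitters' processing notes. The deposited table holds 1 signal per gene and library, normalized by the authors: values are not whole, so no count test was run and the depth in reads is unknown. Which counter, annotation release, strand setting and filters the authors used is not given in the sources. The deposited gene length, another column of that table, was used per kilobase. Coordinates of the 9 members were identical in GENCODE (GRCm38).

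Groups came from the sample titles and characteristics. Log2(value + 1) was tested, two-sided, with limma-trend (R 4.3.3, limma 3.58.1), a scale that understates changes of low genes. The 16432 genes tested reached a value of 1 in 2 or more libraries. All 8 libraries and the 4 group means entered 1 fit. P-values were adjusted by Benjamini-Hochberg over all genes in each of 7 comparisons, and called means under 0.05. Confidence intervals are 95%. Intervals cover the spread between libraries only. Other settings were a pseudocount of 0.25, no filter or a mean of at least 5, median-of-ratios or quantile scaling, a replicate block, removal of each library's trend with GC content (loess, span 0.3, 99.8% of tested genes), both together, library weights, the 4 libraries compared alone, each library left out, and the 2 libraries high in atrial markers left out (chosen after seeing the data). The scripts were tested on simulated data.

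The members and lists were chosen with earlier results of these data known. Named besides the 9 members are direct partners with the regulators Klf15, Irx3 and Irx5 (1 gene of this rule is not reported here), each other listed channel gene called, the 3 with the smallest p in each comparison of 2 groups, and the 3 genes most alike to each of the 3 members of widest range. Kcnk3, Kcnb2 and Kcne2 were named after their values were seen. Promoter windows are from RefSeq (GRCm38.p6). Tables and figures were made in Python 3.11.15 (numpy 2.4.6, pandas 2.3.3, matplotlib 3.10.9).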

Additional observations from a re-analysis of the deposited data

How the results depend on the processing

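With 2 libraries per group, most calls changed when 1 library was left out or GC trends were removed. Of the 9 members, 3 were called between TAC SFA and sham SFA, 6 after GC correction and 4 after it with the replicate block. The number was 4 with a mean of at least 5 or library weights. It was 2 with no filter or the replicate block and 0 with the 4 libraries alone. Over all genes 205 were called, 954 after GC correction, 830 after it with the block and 728 with library weights. They were 323 of 12420 with a mean of at least 5 and 197 of 20568 with no filter. With the replicate block 96 were called, and 0 with the 4 libraries alone. The members' calls were lost without both libraries high in atrial markers and in some fits with 1 library left out. Between TAC SFA-EAA and TAC SFA 1 member was called, against 8 of all genes. The number was 0 with a pseudocount of 0.25, no filter, the replicate block, library weights or the 4 libraries alone, as over all genes. It was 2 with a mean of at least 5 (77 of 12420 genes). After GC correction it was 4 without and with the replicate block (381 and 247 of all genes). The call was lost without both high-atrial libraries and in most fits with 1 library left out. For TAC minus sham averaged over diets 4 members were called, against 347 of all genes. The number was 6 after GC correction (1153 genes), 5 after it with the block (965) and 3 with quantile scaling (291). It was 2 with no filter (56 of 20568 genes) or the replicate block (147). All calls were lost without both high-atrial libraries, and some in most fits with 1 library left out. For the diets averaged over surgery 2 members were called, against 199 of all genes. The number was 3 after GC correction (493 genes), after it with the block (359), with a mean of at least 5 (631 of 12420) or with library weights (673). It was 1 with a pseudocount of 0.25 (57 genes) or quantile scaling (42), and 0 with no filter or the replicate block, as over all genes. Both calls were lost without both high-atrial libraries and in most fits with 1 library left out. The number of members called stayed at 0 in every setting for TAC under SFA-EAA, the diets in sham hearts and the interaction. The fit on 4 libraries alone has fewer residual degrees of freedom. The replicate block spends 1 more, and same-numbered libraries of different groups did not deviate together (r -0.10 to 0.01 over 16432 genes). Other causes were not tested. Fits that leave 1 library in a group assume that it varies like the others. Over all genes, TAC against sham under SFA called 137 higher and 68 lower genes, and 386 and 568 after GC correction.

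Among the differences reported, direction turned only for some that were not called in the fit on all 8 libraries as deposited. Among them, Kcnj11 between the diets averaged over surgery was -0.34 without TAC SFA-EAA replicate 1. After GC correction it was 0.25, in the other direction. Between TAC SFA and sham SFA, differences ran -0.26 to 0.14 (Kcnd3), -1.05 to 0.20 (Kcna5) and -0.12 to 0.27 (Kcnq1) with 1 library left out, and were 0.18 (Kcna5) and -0.042 (Kcnq1) without both high-atrial libraries. Between TAC SFA-EAA and sham SFA-EAA they ran -0.24 to 0.029 (Kcnd3), -0.012 to 0.50 (Kcna5), -0.11 to 0.46 (Kcnq1) and -0.39 to 0.28 (Kcnj11). Between sham SFA-EAA and sham SFA, GC correction with or without the block gave 0.088 (Kcnip2), 0.085 (Kcnq1), -0.090 (Kcnj3) and 0.15 (Kcnj11), and Kcnj3 ran -0.015 to 0.27 with 1 library left out. Between TAC SFA-EAA and TAC SFA, GC correction with or without the block gave 0.16 (Kcnq1) and 0.34 (Kcnj11). With 1 library left out the values ran -0.55 to 0.70 (Kcna5), -0.43 to 0.14 (Kcnq1) and -0.39 to 0.28 (Kcnj11), and without both high-atrial libraries they were -0.55, 0.053 and 0.11 in the same order.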
